A study of Danio rerio with 26 samples.

Results

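The rule asked for 5 TPM or more in every alcohol and withdrawal liver library. It also asked that each of these be at least 2 times as high as any control library. Of 57918 transcripts listed for zebrafish liver, 44 met both clauses. TPM is abundance per length of transcript, scaled to the same total in each library, so levels of different transcripts can be set side by side. A further clause of the rule left out transcripts whose control females were all at least 4 times as high as both control males. It removed 12 of the 44 transcripts that met the level and ratio clauses and left the 32 members described here. Those 44 were 0.208% of the 21158 liver transcripts tested. The members were chosen by these liver TPM values, so the height of the alcohol and withdrawal livers over the controls is a description and carries no test here. By the limma fit explained further on, all 32 were called higher under alcohol than in controls, where 45.1% of all transcripts were called (24.1% higher, 21.0% lower), and all 32 after withdrawal, where 62.2% were (32.8% higher, 29.4% lower); nothing is read from these counts.

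The livers came from adult fish of the AB strain (short fin), 2 libraries in each of 6 groups. Withdrawal females and withdrawal males had stopped the exposure, and the length of that period is not given in the sources used here. Alcohol-exposed females and males had lived for 9 weeks in water with 0.5% ethanol, renewed daily, and had been bred from the fifth week on. Control females and males were given the same daily transfer into ethanol-free water. The brain set, which took no part in choosing the members, held 14 libraries: 2 of withdrawal females and 3 of withdrawal males, 2 each of alcohol females and males, and 3 of control females and 2 of control males. Tissue was pooled within groups. The labels do not say that replicates were separate pools, so every p-value reflects library-to-library spread that may be technical. In pooled tissue, fewer cells of a type and less RNA per cell cannot be told apart.

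The liver metabolises most ethanol. Alcohol dehydrogenases oxidise it to acetaldehyde, aldehyde dehydrogenases turn acetaldehyde into acetate, and a microsomal cytochrome P450 route adds to this under chronic exposure. Long exposure in fish and mammals is known for fat storage, oxidative stress and stress of the endoplasmic reticulum in hepatocytes. The files give Ensembl transcript identifiers only, and the gene tables used here hold no transcript identifiers. No member is therefore given a gene name, a role, a position or a sequence, and the tissue label could not be checked against marker genes. Members are numbered 1 to 32 by their mean TPM over the 8 alcohol and withdrawal livers.

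Control male livers stood apart from all others: on the first principal component of the tested transcripts (37.6% of the variance) they lay at −150.0 and −157.6, and the other 10 livers at −18.8 or above. Set against control females alone on the low side, 130 transcripts met the rule, and set against control males alone, 359 did. Scaling between libraries mattered as well. The typical transcript had a lower TPM in controls, with scale factors (the median ratio of a library to the geometric mean) of 1.00 to 1.198 in withdrawal livers, 1.09 to 1.22 in alcohol livers and 0.725 to 1.00 in controls. After division by these factors 16 of the 32 members still met the whole rule, and no other transcript did. In deposited TPM 44 transcripts met the level and ratio clauses and 1 met their mirror image (all alcohol and withdrawal livers at most 1 part in 2 of all controls). In rescaled TPM these numbers were 21 and 4.

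Most members were scarce in control livers and of low to middling abundance in the exposed ones. Their mean level ran from 8.64 to 7257 TPM over alcohol and withdrawal livers, with a median of 29.0 TPM, and from 0.55 to 923 TPM over controls, with a median of 3.38 TPM. Of the 32, 2 had a mean under 10 TPM, 15 lay between 10 and 30 TPM, 8 between 30 and 100 TPM and 7 at 100 TPM or more. The median member was 6.17-fold higher in withdrawal than in control females and 6.82-fold higher in withdrawal than in control males. Under alcohol the median fold over controls was 4.78 in females and 9.42 in males. The ratio of the lowest alcohol or withdrawal library to the highest control, which the rule bounded at 2, had a median of 2.58 and reached 9.69. It was under 2.5 for 16 members and over 4 for 8. Just inside the bound stood members 17, 10 and 2, at ratios of 2.02, 2.03 and 2.04, and just outside it 3 transcripts at 1.98, 1.96 and 1.95.

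**Figure D1:**
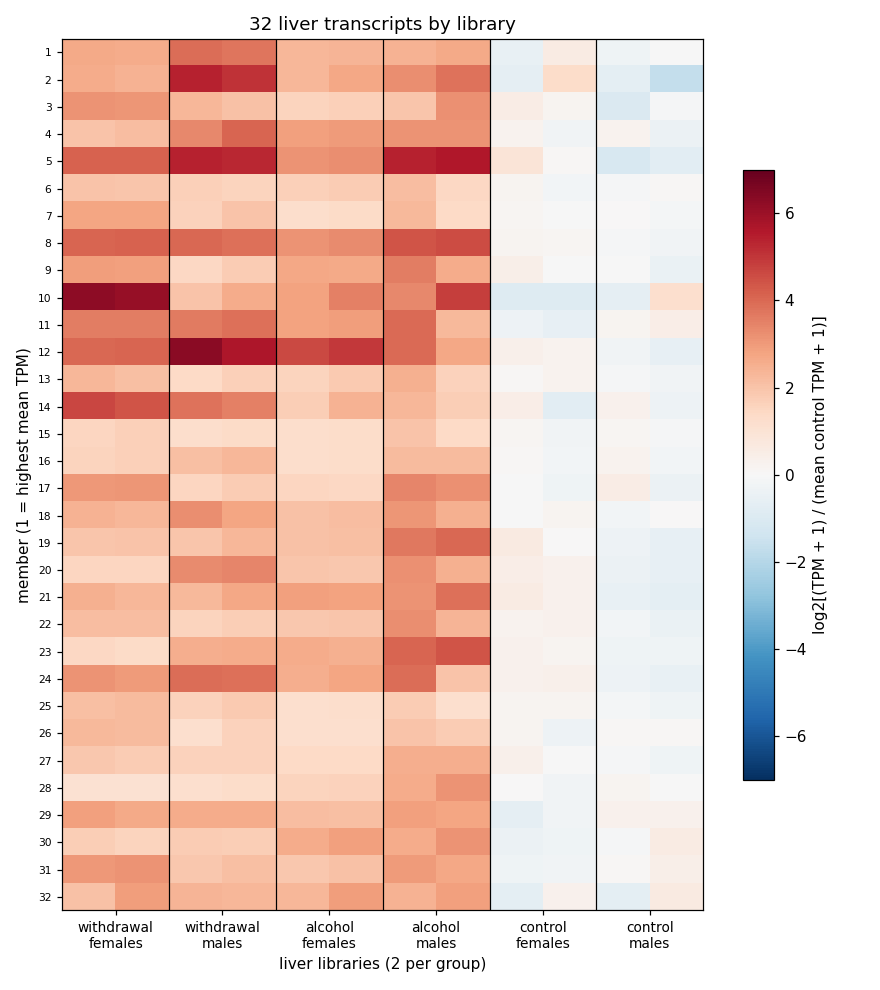
Heat map of the 32 members (down the page, numbered by mean TPM) in the 12 liver libraries (across, 2 per group), coloured by log2 of TPM + 1 over the mean control TPM + 1. All members are red in the 8 withdrawal and alcohol libraries, as the rule requires, with the deepest red in different groups. In deposited TPM 9 members had their highest group mean in withdrawal females, 9 in withdrawal males and 14 in alcohol males. No matching share of all transcripts was computed.

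Member 1 (ENSDART00000061007.3) far exceeded the others. It stood at 5767 and 5607 TPM in withdrawal females, 14144 and 12234 TPM in withdrawal males, 4678 and 4795 TPM in alcohol females and 5082 and 5752 TPM in alcohol males, against 637 and 1389 TPM in control females and 746 and 921 TPM in control males. Withdrawal males were more than 2 times as high as any other library, and the other 3 exposed groups lay close together. This transcript alone made up between 65.7% and 80.01% of the summed TPM of the 32 members in every library. The sum was 7808 to 18705 TPM in withdrawal livers, 6044 to 8687 TPM in alcohol livers and 970 to 1793 TPM in controls.

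Member 2 (ENSDART00000135457.1) was also highest in withdrawal males. It was at 443 and 398 TPM in withdrawal females, 2985 and 2453 TPM in withdrawal males, 357 and 468 TPM in alcohol females and 682 and 1004 TPM in alcohol males, against 45.2 and 175 TPM in control females and 43.7 and 21.8 TPM in control males. Its control females differed from each other nearly 4-fold, and the higher of them set its place at the edge of the rule. Over the 8 withdrawal and alcohol livers members 1 and 2 followed each other (Pearson r = 0.93 of log2(rescaled TPM + 1) over 8 libraries, a description).

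The ratio of exposed to control livers was highest for member 8 (ENSDART00000149039.2), at 64.0 and 65.1 TPM in withdrawal females, 60.1 and 53.4 TPM in withdrawal males, 32.5 and 36.7 TPM in alcohol females and 80.3 and 91.2 TPM in alcohol males, against 3.35 and 3.14 TPM in control females and 2.58 and 2.25 TPM in control males. All controls lay within a narrow band, and the exposed libraries spread almost 3-fold. Next came member 12 (ENSDART00000140602.1), at 24.6 and 25.0 TPM in withdrawal females, 121 and 76.4 TPM in withdrawal males, 37.0 and 47.6 TPM in alcohol females and 23.1 and 9.17 TPM in alcohol males, against 1.00 and 0.87 TPM in control females and 0.29 and 0.05 TPM in control males. Here the exposed libraries differed more than 10-fold among themselves. Members 10 and 32 were each listed at 0 in 2 control livers. Such a listing may mean that the estimate failed and not that the transcript was missing.

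**Figure D2:**
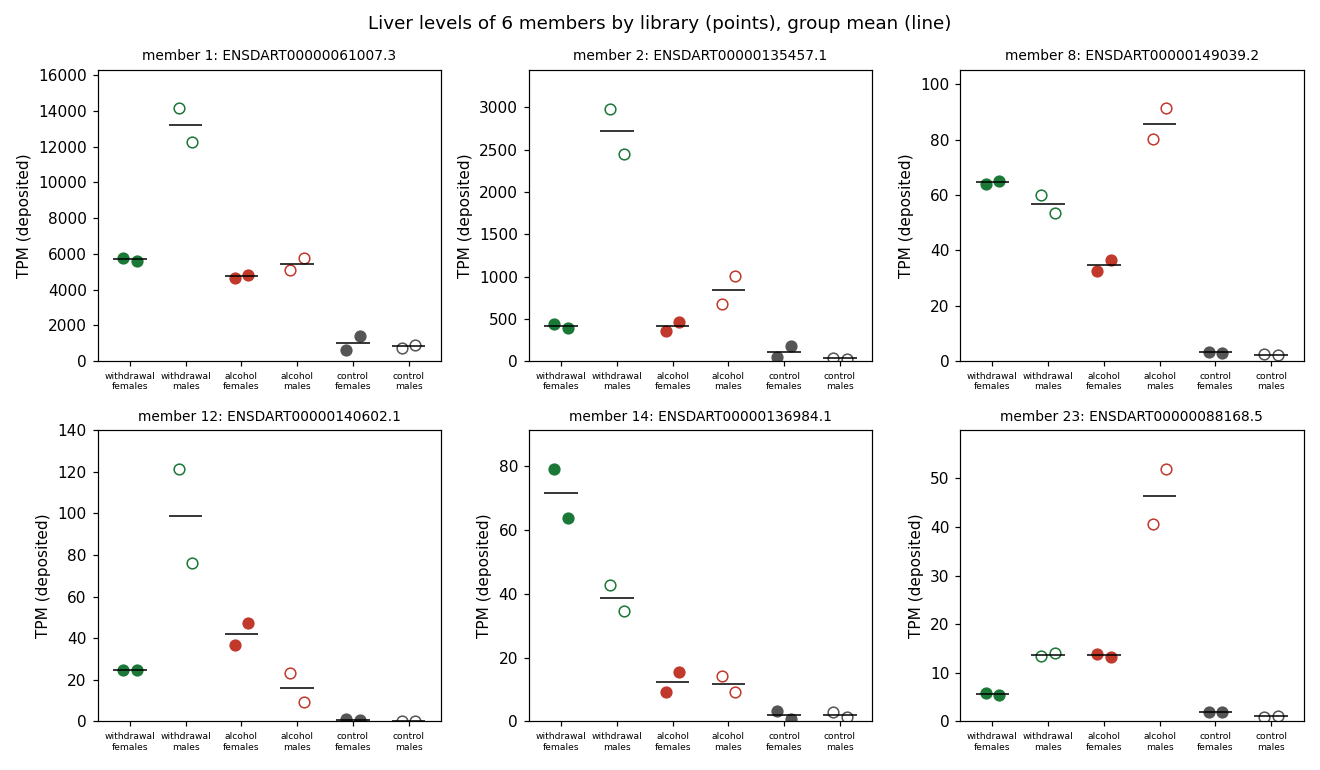
Deposited TPM of members 1, 2, 8, 12, 14 and 23 in each liver library (points; filled, females; open, males; linear axes from 0), with the group mean as a line. Withdrawal males are highest for members 1, 2 and 12, alcohol males for members 8 and 23, and withdrawal females for member 14, where every withdrawal library lies above every alcohol library.

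Withdrawal and alcohol livers were compared on log2 of rescaled TPM + 1, with limma fitted to all 21158 transcripts and a call at a Benjamini-Hochberg adjusted p below 0.05. Averaged over the sexes, 9 of the 32 members were called between withdrawal and alcohol livers, 4 higher and 5 lower, which is 28.1% of them. Among all tested transcripts 40.9% were called (20.4% higher, 20.6% lower). The rule held all 8 of these livers above the controls, so a transcript that returned to its control level could not be a member. The members' counts in this and the following liver comparisons therefore describe chosen transcripts, and the shares over all transcripts stand beside them as background only. The median member moved by 0.16 log2 units and the median transcript by 0. In deposited TPM, withdrawal and alcohol livers overlapped for 28 members, lay apart with withdrawal higher for 1 and with alcohol higher for 3. Over all tested transcripts all 4 withdrawal livers lay above all alcohol livers for 8.64% and below them for 7.45%.

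The member with the clearest further rise was member 14 (ENSDART00000136984.1). It stood at 79.0 and 63.7 TPM in withdrawal females and 42.7 and 34.6 TPM in withdrawal males, against 9.12 and 15.4 TPM in alcohol females and 14.4 and 9.18 TPM in alcohol males. The log2 change of withdrawal over alcohol was 2.07 (SE 0.31, limma adjusted p = 0.00131), and all 4 withdrawal libraries were higher. Its controls lay between 0.85 and 3.19 TPM. Members 7 and 25 were called higher in females (1.35 and 0.83 log2 units) and not called in males (0.09 and 0.36). Member 12 was called higher in males (2.75) and not called in females (−0.83). In the mean over the sexes members 7, 12 and 25 rose by 0.72, 0.96 and 0.59 log2 units. All 3 lost the call without replicate 1 of the alcohol females or with nearly identical replicates averaged, and member 12 lost it in 10 of its 22 alternatives.

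Of the members that fell after withdrawal while staying above controls, member 23 (ENSDART00000088168.5) had the smallest adjusted p. It was at 5.83 and 5.42 TPM in withdrawal females and 13.4 and 14.0 TPM in withdrawal males, against 14.0 and 13.2 TPM in alcohol females and 40.7 and 51.9 TPM in alcohol males (log2 change −1.38, SE 0.10, limma adjusted p = 3.85e-05). Each sex fell, and its controls lay between 1.00 and 2.04 TPM. Member 28 (ENSDART00000169923.1) fell by 1.05 log2 units (SE 0.13, limma adjusted p = 0.000569), with withdrawal livers at 6.80 to 8.15 TPM and alcohol livers at 9.97 to 32.5 TPM. The falls of members 19 and 21 were called in males (−1.59 and −0.87 log2 units) and not in females (−0.19 and −0.50). In the mean over the sexes members 19, 21 and 30 fell by 0.89, 0.68 and 1.09 log2 units. With nearly identical replicates averaged, 5 of the 32 were called, 1 higher and 4 lower, and 18.7% of all transcripts.

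For some members, as for many other transcripts, the mean over the sexes covered unlike responses. In females 10 members were higher and 4 lower after withdrawal than under alcohol (43.8%, against 28.0% of all transcripts, 13.4% higher and 14.6% lower). In TPM that was not rescaled the counts were 11 and 2. In males 4 were higher and 10 lower (43.8%, against 39.3%, 21.1% higher and 18.3% lower). The difference between the sexes in this change was called for 15 of the 32 members (46.9%, against 33.1% of all transcripts). Of these, 12 had the higher change in females (14.8% of all transcripts) and 3 the lower (18.3%). These shares include transcripts of lower abundance than the members. With only transcripts at 5 TPM or more in 2 libraries tested, 14 members were called in females, beside 37.1% of all transcripts. In males 16 were called, beside 52.4%, and for the difference between the sexes 16, beside 44.5%. In 14 members the estimated change was positive in females and negative in males. The share of all transcripts with such a split was not computed. Member 17 (ENSDART00000129407.3) rose to 38.4 and 40.2 TPM in withdrawal females, against 12.7 and 12.0 TPM in alcohol females, and fell to 12.5 and 15.8 TPM in withdrawal males, against 51.3 and 42.5 TPM in alcohol males. The sexes thus exchanged places, and the female change minus the male change was 3.02 log2 units (SE 0.45, limma adjusted p = 0.00206). Member 31 (ENSDART00000151305.1) did the same at a lower level, with 13.6 and 15.1 TPM in withdrawal females and 5.60 and 6.68 TPM in withdrawal males, against 5.56 and 6.36 TPM in alcohol females and 13.1 and 10.7 TPM in alcohol males (female minus male change 1.76, SE 0.21, limma adjusted p = 0.000837).

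Member 10 differed most between the sexes. It stood at 142 and 125 TPM in withdrawal females, 6.53 and 10.1 TPM in withdrawal males, 12.1 and 20.7 TPM in alcohol females and 18.4 and 52.7 TPM in alcohol males. The female change minus the male change was 4.57 log2 units (SE 0.87, limma adjusted p = 0.00585). Member 12 was the widest in the other direction, with a difference of −3.58 (SE 0.59, limma adjusted p = 0.00314): it rose by 2.75 log2 units in males, and the change in females, −0.83, did not pass the test. For member 1 the rise of 1.41 log2 units in males was called (limma adjusted p = 0.0217), while the female change of 0.16 was not (0.81), and the difference between the sexes did not pass the test either (−1.25, limma adjusted p = 0.12). The male call of member 1 was lost in 5 of its 22 alternatives, among them the fits without either alcohol male or without replicate 1 of the withdrawal males.

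The counts by sex depended on single libraries, and the shares over all transcripts fell with them. Without replicate 1 or 2 of the alcohol females or replicate 2 of the withdrawal females 6 members were called in females, and 7 without replicate 1 of the withdrawal females, with 13.3% to 16.1% of all transcripts called. In males 9 were called without replicate 1 of the withdrawal males (21.2% of all transcripts), and each of these 5 omissions left 9 calls for the difference between the sexes (20.6% to 24.2%). The replicates of the alcohol females and of the withdrawal females were nearly identical (median absolute log2 ratio of 0.068 and 0.069 between them at 20 TPM or more, against 0.28 to 0.32 in the other liver groups). With each such pair averaged, limma called 0 members in females (9 at an unadjusted p below 0.05) and 3 for the difference between sexes. The shares over all transcripts dropped likewise, to 4.13% and 9.19%. This fit rests on the assumption that the lone female libraries vary like the other groups.

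**Figure D3:**
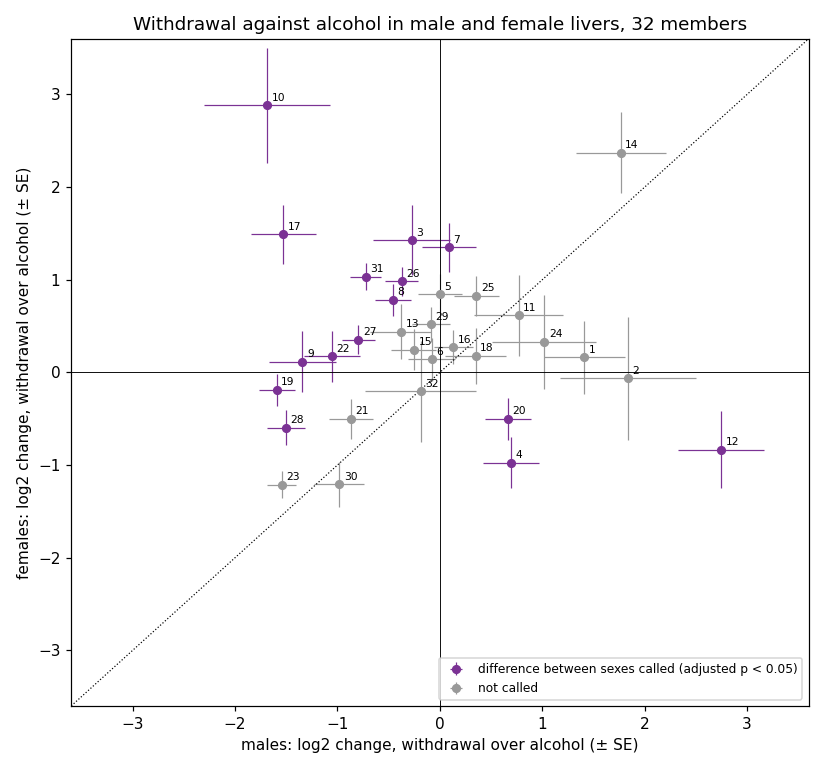
Log2 change of withdrawal over alcohol livers (rescaled TPM + 1, ± SE from limma) for the 32 members, females on the vertical and males on the horizontal axis; purple points are the 15 members whose difference between sexes was called. Member 14 lies high in both sexes and member 23 low in both, members 10 and 17 have positive female and negative male estimates, and member 12 lies far to the right.

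Female and male livers were also compared within one exposure. The rule used these libraries too and left out transcripts by the female-to-male ratio of their controls, and the effect of that choice on the counts was not tested. Under alcohol the estimate was lower in alcohol females than in alcohol males for 28 of the 32, with 11 called lower and 1 higher (37.5%, against 29.6% of all transcripts, 15.3% higher and 14.3% lower). With only transcripts at 5 TPM or more in 2 libraries tested, 14 members were called, beside 41.0% of all transcripts. The median difference of the members was −0.56 log2 units, against 0 over all transcripts. Member 5 (ENSDART00000140033.1) had the largest such difference, at 39.4 and 42.2 TPM in alcohol females against 190 and 218 TPM in alcohol males (log2 difference −2.16, SE 0.21, limma adjusted p = 0.000196). It remained lower in withdrawal females, at 79.98 and 79.3 TPM, than in withdrawal males, at 192 and 180 TPM. In its controls the order was the other way round, with 7.65 and 3.87 TPM in females and 1.08 and 1.75 TPM in males. Member 23, described above, was lower in females in each exposure (−1.56 under alcohol and −1.23 after withdrawal, limma adjusted p = 0.000127 and 0.000388). Member 12 was the exception under alcohol, with a female excess of 1.57 log2 units (limma adjusted p = 0.0231) whose call was lost in 6 of its 22 alternatives.

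After withdrawal the members were split, with 6 higher and 8 lower in females (43.8%, against 40.8% of all transcripts, 19.4% higher and 21.4% lower) and a median difference of 0.06. With quantile normalisation these were 10 and 7. With the filter of 5 TPM in 2 libraries 14 members were called, beside 52.8% of all transcripts. Member 10 was 3.76 log2 units higher in withdrawal females than in withdrawal males (SE 0.62, limma adjusted p = 0.00198). Member 2 was 2.79 lower (SE 0.66, limma adjusted p = 0.0105). That call was lost without replicate 1 of the withdrawal males, without replicate 2 of the withdrawal females and with nearly identical replicates averaged. Members 20 and 4 had differences of −1.95 and −1.74 (limma adjusted p = 0.000391 and 0.00166) and kept the call in all 22 alternatives. Of the members called under alcohol, 4 were called lower in females at each exposure, and 4 were called in opposite directions. No share of all transcripts was computed for either count. Under alcohol 7 members and 16.0% of all transcripts were called without replicate 1 of the alcohol females. After withdrawal 8 members were called without replicate 1 of the withdrawal males or replicate 2 of the withdrawal females, beside 23.6% and 26.6% of all transcripts. With nearly identical pairs averaged 6 members were called in each of these comparisons, beside 11.1% of all transcripts under alcohol and 19.7% after withdrawal.

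**Figure D4:**
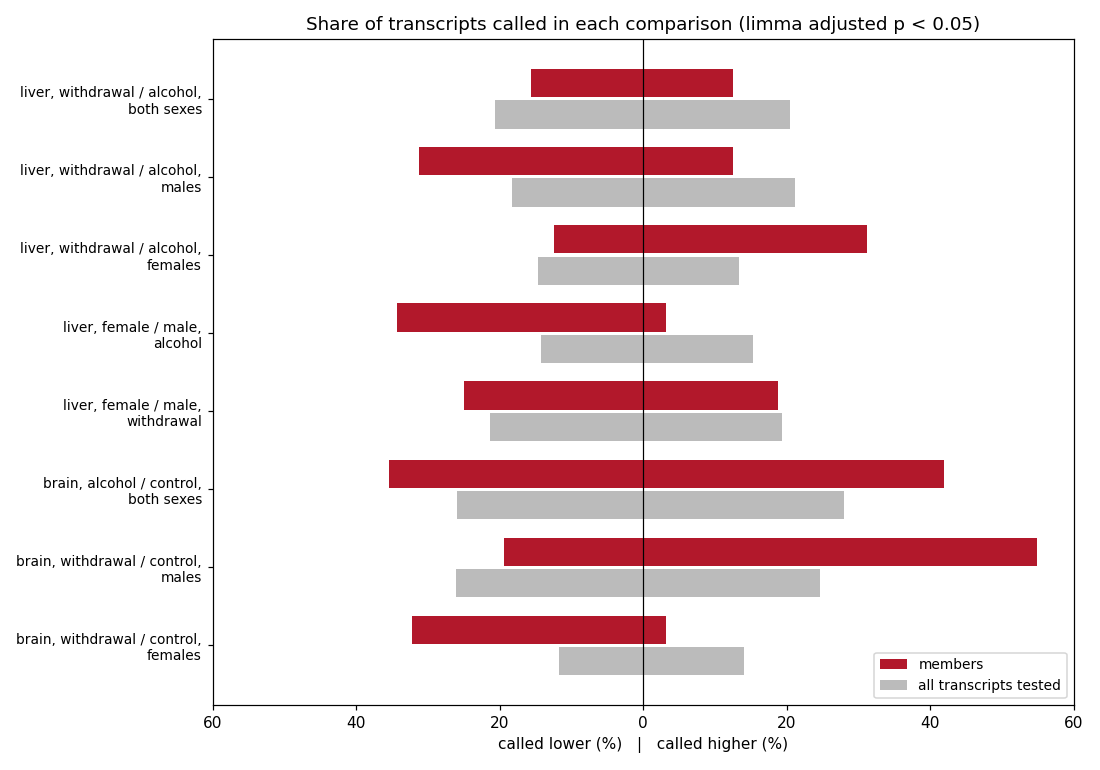
Share of the members (red) and of all transcripts tested (grey) called higher (right) or lower (left) in 8 comparisons by limma at an adjusted p below 0.05. The liver bars rest on libraries the rule used, and the brain bars do not: in male brains 17 of 31 members were higher after withdrawal, against 24.7% of all transcripts.

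The brain gave a readout that the rule had not used. There 31 of the 32 members reached 1 TPM in at least 2 libraries, and member 10 was listed at 0 in all 14. Among the liver transcripts tested, 91.5% reached that level in the brain. Control brains held 23 members at a mean of 1 TPM or more, and 21 members had a higher mean in control brains than in control livers. The rule chose transcripts that were low in control livers, so the count of 21 is not free of it. No share of all transcripts was computed for either count. Members 2, 3, 4 and 5, each at 218 TPM or more in its highest liver, were at most at 2.68, 3.65, 1.88 and 3.91 TPM in any brain.

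Between alcohol and control brains 24 of the 31 members were called, 13 higher and 11 lower (77.4%, against 53.9% of all 36682 transcripts tested, 28.0% higher and 25.9% lower). The direction depended on the scaling. Alcohol brains had scale factors of 2.04 to 2.18, and all other brains 0.60 to 0.95. Without rescaling the median of all brain transcripts stood at 1.09 log2 units, against 0.11 with it, and 20 members were called higher and 4 lower. With quantile normalisation 17 were higher and 4 lower. With only transcripts at 5 TPM or more in 2 libraries tested, 23 of 24 members were called, beside 71.0% of all transcripts. The mean also covered a difference between the sexes, by a test added after the values were seen. The change under alcohol was lower in females than in males for 15 members and higher for 2, by limma at an adjusted p below 0.05 (54.8%, against 27.5% of all transcripts, 13.7% higher and 13.8% lower). In TPM that was not rescaled 18 were lower and 0 higher, with a median of −0.25 over all transcripts, and with nearly identical replicates averaged 5 members and 7.63% of all transcripts were called. With the filter of 5 TPM in 2 libraries 16 of 24 members were called for this difference, beside 37.6% of all transcripts. The shift in scale and the exposure coincide in these brains and cannot be told apart.

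Member 19 (ENSDART00000099214.3) had the smallest adjusted p among those that rose in alcohol brains. It was at 13.5 and 17.1 TPM in alcohol females and 18.5 and 15.8 TPM in alcohol males, against 3.77, 4.38 and 4.04 TPM in control females and 0.87 and 0.63 TPM in control males (log2 change 1.302, SE 0.13, limma adjusted p = 6.52e-06). All alcohol brains were above all controls in deposited TPM. The female change minus the male change was −1.58 (SE 0.25, limma adjusted p = 0.00208), with fitted changes of 0.51 in females and 2.09 in males. In deposited TPM the alcohol brains of the sexes overlapped, and control females were above control males. The part of that control difference in the result was not tested. Member 31 had 6.73 and 7.57 TPM in alcohol females and 35.4 and 37.2 TPM in alcohol males, against 2.97 to 3.53 TPM in all 5 control brains (mean log2 change 0.70, SE 0.09, limma adjusted p = 4.46e-05). After rescaling its fitted change was −0.11 in females and 1.52 in males, so the higher mean came from males (difference −1.62, SE 0.17, limma adjusted p = 0.000319). In the mean over the sexes both kept sign and call in all 23 alternatives.

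Several calls of a lower level in alcohol brains depended on the scaling. Member 6 (ENSDART00000099467.3) was at 78.2 and 76.7 TPM in alcohol females and 119 and 120 TPM in alcohol males, against 221, 183 and 222 TPM in control females and 164 and 153 TPM in control males (log2 change −2.39, SE 0.06, limma adjusted p = 1.79e-10). With quantile normalisation its change was −0.10 and not called. Member 7 (ENSDART00000058913.4) had a log2 change of −1.81 (SE 0.06, limma adjusted p = 5.16e-10), which turned to 0.02 with quantile normalisation. Member 13 was at 14.7 and 11.2 TPM in alcohol females and 11.8 and 23.2 TPM in alcohol males, against 37.97, 31.2 and 32.6 TPM in control females and 20.1 and 19.6 TPM in control males, with overlap in males. On rescaled values it fell by 2.18 log2 units (SE 0.15, limma adjusted p = 2.34e-07) and kept its sign and call in all 23 alternatives, the smallest fall being 0.79. Member 1 was called lower (−1.04, limma adjusted p = 2.16e-05), and called higher without rescaling (0.46) and with quantile normalisation (0.96).

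After withdrawal the estimated change from control differed between male and female brains, and so did the shift in scale factors. These were 0.64 and 0.68 in withdrawal females, against 0.82 to 0.90 in control females. In withdrawal males they were 0.89 to 0.95, against 0.60 and 0.69 in control males. The part of this shift in the results was not tested. In males 17 of the 31 members were higher and 6 lower than in control males (74.2%, against 50.9% of all transcripts, 24.7% higher and 26.1% lower), and in females 1 was higher and 10 lower than in control females (35.5%, against 25.8%, 14.0% higher and 11.8% lower). The median member moved by 0.56 log2 units in males and −0.25 in females, with medians of 0 and −0.002 over all transcripts. Without rescaling 21 were higher and 1 lower in males, with a median of 0.29 over all transcripts, and with quantile normalisation 17 and 2. In females 0 were higher and 13 lower without rescaling, with a median of −0.23 over all transcripts. With the filter of 5 TPM in 2 libraries 20 of 24 members were called in males, beside 64.0% of all transcripts. In females 10 were called, beside 35.6%. A test of the difference between the sexes, added after the values were seen, called 21 members (67.7%, against 52.9% of all transcripts). Of these, 17 had the lower change in females (25.4% of all transcripts) and 4 the higher (27.5%). In TPM that was not rescaled the counts were 24 and 0, with a median of −0.53 over all transcripts. With the filter of 5 TPM 19 of 24 members were called for the difference, beside 65.3% of all transcripts. Of the members, 7 were called higher in males and lower in females. The share of all transcripts with such opposite calls was not computed.

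Member 1 was abundant in brain as well and had its highest level in the same group as in the liver. It stood at 1225 and 1884 TPM in withdrawal females, 4820, 4010 and 4488 TPM in withdrawal males, 1715 and 1912 TPM in alcohol females and 1529 and 1478 TPM in alcohol males, against 2157, 1838 and 2167 TPM in control females and 766 and 639 TPM in control males. All 3 withdrawal males were above every other brain. Withdrawal males exceeded control males by 2.14 log2 units (SE 0.16, limma adjusted p = 7.53e-06), the change in females was −0.05 (limma adjusted p = 0.85; −0.74 and called with quantile normalisation), and the difference was −2.19 (SE 0.22, limma adjusted p = 2.34e-05).

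Member 12, followed here after its values were seen, was again highest in withdrawal males. It was at 1.81 and 5.43 TPM in withdrawal females and 32.2, 22.3 and 18.03 TPM in withdrawal males, against 10.7, 7.54 and 2.55 TPM in control females and 1.95 and 2.24 TPM in control males. The male change was 2.64 log2 units (SE 0.55, limma adjusted p = 0.00244) and the female change minus the male change −3.10 (SE 0.78, limma adjusted p = 0.00662), a call lost with a pseudocount of 0.1. Control females exceeded control males for both members in the brain, whereas the control livers of the sexes overlapped for member 1. Other members highest in withdrawal male livers did not all share this brain pattern in deposited TPM. Members 11, 16, 20 and 24 had their highest brain library under alcohol, and member 18 in control females. Members 2 and 4 had theirs in a withdrawal male, at only 2.68 and 1.88 TPM.

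The counts in the withdrawal brains were smaller under several settings. In females 5 members were called without replicate 1 of the control females, 6 without their replicate 3, 7 without replicate 2 of the withdrawal females and 5 when only withdrawal and control females were fitted, beside 19.8% to 23.9% of all transcripts. The 3 withdrawal male brains were nearly identical to each other (median absolute log2 ratio of 0.062 to 0.089), and averaging them with the alcohol females left 15 calls in males (29.4% of all transcripts) and 6 in females (17.6%).

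**Figure D5:**
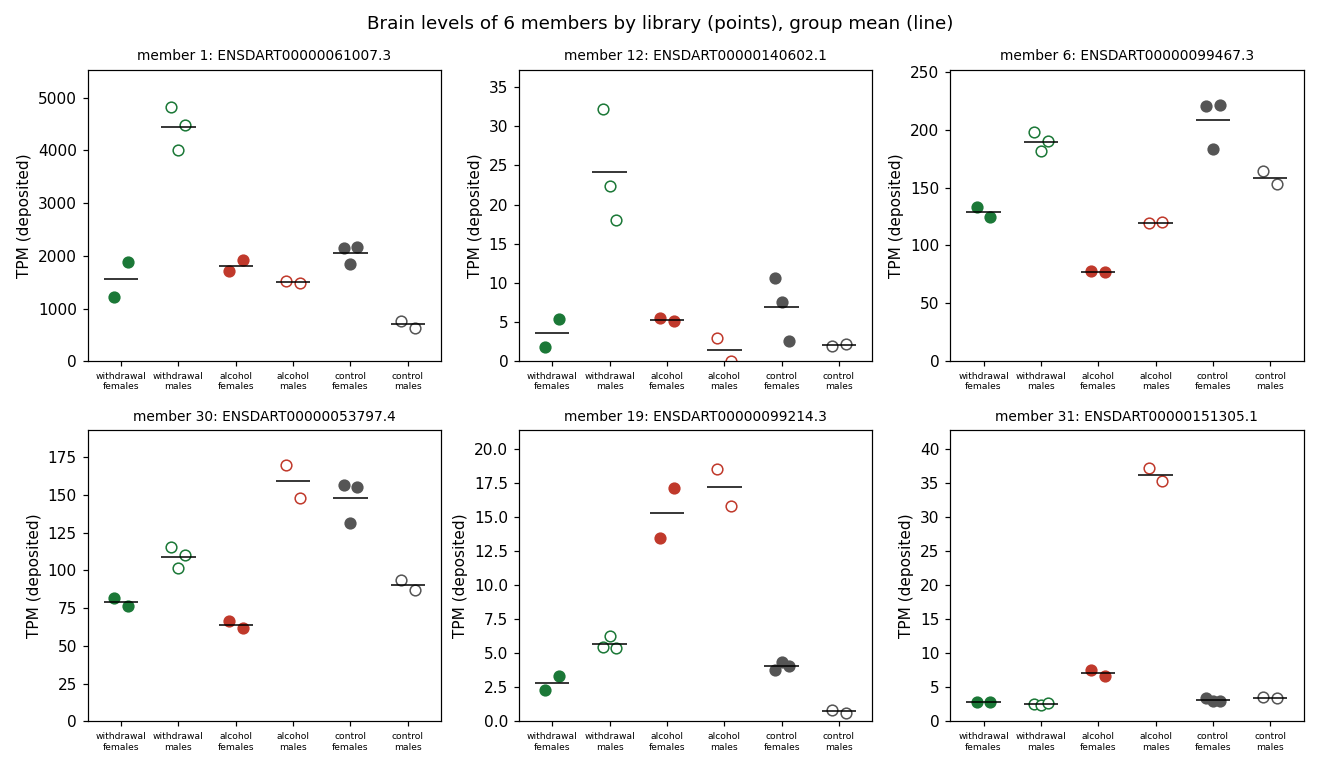
Deposited TPM of members 1, 12, 6, 30, 19 and 31 in each brain library (points; filled, females; open, males; linear axes from 0), with the group mean as a line. Members 1 and 12 are highest in withdrawal males, member 6 is lowest in alcohol females at 76.7 and 78.2 TPM, and member 31 is highest in alcohol males at 35.4 and 37.2 TPM.

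The members varied in different ways among the alcohol and withdrawal livers. Over the 8 withdrawal and alcohol livers the 496 pairs of members had a median Pearson r of 0.15 on log2(TPM + 1) of rescaled values, from −0.92 to 0.98, and 187 pairs were below 0. These correlations rest on 4 groups of 2 libraries and are descriptions. No matching value was computed for other transcripts. The closest pair was members 5 and 16 (r = 0.98), and members 7 and 25 followed each other at 0.94. Of the 32 members none had its highest group mean in alcohol females, where 17 had their lowest of the 4. These counts are in deposited TPM, and no share of all transcripts was computed for them.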

How the data were processed

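Brain and liver RNA was sequenced from non-stranded libraries, per the labels' protocols. The submitters' processing notes name FastQC 0.11.7, STAR 2.5.2, RSEM 1.3.1 and the danRer10 build; the annotation release is not given in the sources used here. The authors deposited TPM per Ensembl transcript, rounded, 1 table per tissue. Read numbers cannot be had from TPM, so depth is unknown, and reads shared by similar transcripts may be split in ways the table does not show.

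Transcripts at 1 TPM or more in 2 libraries were tested (21158 in liver, 36682 in brain). TPM was rescaled by the median of ratios over the 14468 liver and 27390 brain transcripts above 0 in every library. Values were log2(TPM + 1), which understates changes of low transcripts. limma 3.58.1 (R 4.3.3) with a variance trend fitted a mean for each of 6 groups, and p-values were adjusted over all transcripts. Levels and ratios are deposited TPM. Plots used matplotlib 3.10.9 and Python 3.11.15. The limma fit was tested on simulated data drawn from its own model, without the rescaling step.

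Members, lists and comparisons were chosen with earlier results of these data known. Members named are drawn from the highest by level and by ratio, those with the smallest adjusted p per direction in each comparison, and those nearest the bound; the planned gene and marker lists could not be used. Likeness was planned over all 12 livers and is given over the 8 alcohol and withdrawal livers, since the rule itself sets members above the controls. Replicate numbers were not used as a block.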

Additional observations from a re-analysis of the deposited data

Results flagged for a closer look

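The change of withdrawal over alcohol differed between female and male livers for 15 of the 32 members by a limma interaction term (adjusted p below 0.05), beside 33.1% of all transcripts. With only transcripts at 5 TPM or more in 2 libraries tested, 16 were called, beside 44.5%. The female minus male change in log2 units was 1.76 for ENSDART00000151305.1 (member 31), 3.02 for ENSDART00000129407.3 (member 17), 1.36 for ENSDART00000149382.3 (member 26), 4.57 for ENSDART00000159374.1 (member 10) and −3.58 for ENSDART00000140602.1 (member 12). The calls of members 10 and 26 were lost when nearly identical replicates were averaged.

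In the brain the change of withdrawal over control differed between the sexes for 21 of 31 members by the same kind of test, beside 52.9% of all transcripts. The scale factors of these brains shifted along the same contrast, and the part of that shift in the result was not tested. The difference was −2.19 log2 units, females minus males, for ENSDART00000061007.3 (member 1) and −3.10 for ENSDART00000140602.1 (member 12). In the brain control females were above control males for both, and the part of that difference in the result was not tested. The change of alcohol over control in the brain differed between the sexes for 17 of 31 members, beside 27.5% of all transcripts. With the filter of 5 TPM in 2 libraries 16 of 24 were called, beside 37.6%. The difference was −1.58 log2 units, females minus males, for ENSDART00000099214.3 (member 19) and −1.62 for ENSDART00000151305.1 (member 31). Control females were above control males for member 19 and overlapped with them for member 31.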

How the results depend on the processing

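Of 267 recomputed counts over 12 results, 230 were within 1.5 times the reported one. The number of members was 16 in rescaled TPM, 19 in quantile-normalised TPM (15 of them shared with the 32), 20 with a floor of 10 TPM, 12 with a ratio of 3, 93 with a ratio of 1.5, 130 against control females alone and 359 against control males alone, and 33 to 68 with 1 library left out. With nearly identical replicates averaged (added after the data were seen), limma called 5 members in withdrawal against alcohol over both sexes, 0 in females, 3 for the difference between sexes, 6 for females against males under alcohol and 6 after withdrawal, and in brain 15 in males, 6 in females and 5 for the difference between sexes under alcohol. The share of all transcripts fell too, to 18.7%, 4.13%, 9.19%, 11.1%, 19.7%, 29.4%, 17.6% and 7.63% in the same order. Fitting only the groups compared gave 22 calls in females in liver (52.4% of all transcripts) and 5 in brain (19.8%). No filter gave 9 for the difference between sexes in liver (14.2%). Leaving out 1 library gave 6 to 13 calls over both sexes, 9 to 17 in males, 6 to 17 in females, 9 to 17 for their difference, 7 to 16 and 8 to 17 for females against males under alcohol and after withdrawal, and in brain 22 to 26 under alcohol, 17 to 25 and 5 to 11 after withdrawal in males and females, 17 to 22 for their difference, and 15 to 19 for the difference under alcohol. The share of all transcripts called moved too. In liver it was 29.7% to 43.2% over both sexes, 21.2% to 40.8% in males and 13.3% to 31.8% in females. For their difference it was 20.6% to 34.6%, and for females against males 15.7% to 30.3% and 23.6% to 44.9%. In brain it was 48.5% to 54.8% under alcohol, and 38.3% to 52.6% and 15.5% to 27.7% after withdrawal. For the sex differences in brain it was 44.6% to 54.6% after withdrawal and 18.1% to 29.8% under alcohol.

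The replicate block left 6 of 11 calls in female withdrawal brains (19.2% of all transcripts, against 25.8% without it). It changed no other count by over 1.5 times. The labels give replicates of the same number no other link. The correlation of their deviations from the group means ran from −0.04 to 0.10 in liver and −0.18 to 0.06 in brain. It was over 0.1 for 2 of 30 liver pairs and 0 of 31 brain pairs, and 10 of 12 livers and 0 of 14 brains correlated best with their own number. In groups of 2 the deviations mirror each other, so this check cannot show that pairing is absent. In brain, alcohol against control, the sign turned for member 1 (0.46 without rescaling, 0.96 with quantile normalisation), member 7 (0.016) and member 30 (0.53, both with quantile normalisation). Member 1 in female withdrawal brains, not called, was −0.74 and called with quantile normalisation, and −0.32 to 0.21 with 1 library left out. The cause was not tested. No replicate pair passed the planned bound on correlation, so that averaging was not run. Depth per library is unknown.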

Other observations

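The clause on female controls also removed 3 of the 12 left-out transcripts through values of 0 rather than through a female excess. ENSDART00000149762.2 was listed at 0 in all 4 control livers, and stood at 13.9 and 12.3 TPM in withdrawal females, 53.4 and 58.6 TPM in withdrawal males, 7.38 and 13.5 TPM in alcohol females and 18.2 and 5.78 TPM in alcohol males. ENSDART00000163178.1, also listed at 0 in all controls, was at 9.15 and 18.98 TPM in withdrawal females, 56.4 and 19.8 TPM in withdrawal males, 16.2 and 18.3 TPM in alcohol females and 8.95 and 29.1 TPM in alcohol males. Another was listed at 0 in both control males and 1 control female. With these 3 counted the members would number 35. No fold is given against a listed 0.

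The most abundant of the other 9 stood at 133 and 115 TPM in withdrawal females, 77.1 and 70.6 TPM in withdrawal males, 45.2 and 54.1 TPM in alcohol females and 54.1 and 38.7 TPM in alcohol males, against 15.5 and 16.7 TPM in control females and 0.79 and 1.42 TPM in control males. Its withdrawal livers all lay above its alcohol livers.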
